A study of Mus musculus with 12 samples.

Results

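Bad and 9 genes that lie close to it on mouse chromosome 19 were followed across breast tumours that carry or lack a Bad allele which cannot be phosphorylated. The members are Bad, Gpr137, Kcnk4, Esrra, Trmt112, Prdx5, Plcb3, Ppp1r14b, Fkbp2 and Vegfb. They were taken by gene symbol from the deposited count table, which holds 55487 genes, and each symbol occurred there once. All 10 passed the filter on low counts, as did 18019 genes in all.

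Tumours came from 12 C57BL/6J mice that all carried MMTV-PyMT, a transgene whose viral promoter expresses the polyoma middle T oncogene mainly in mammary epithelial cells. The Bad3SA group was 6 mice with the Bad 3SA genotype, harvested at an end point of 22.857 to 31.143 weeks. The Bad_WT group was 6 mice with wild-type Bad, harvested at 21.286 to 27.143 weeks. Polyadenylated RNA of whole tumours was sequenced, with 58096172 to 83296370 counts per tumour. Luminal epithelial markers such as Epcam and Krt8 were abundant in every tumour, with a list mean of 9.13 to 9.58 log2 CPM (counts scaled by library size and TMM factor) in Bad3SA and 9.17 to 9.48 log2 CPM in Bad_WT. Lists of other cell types were less even, although none of their genes passed in edgeR. Over all genes tested 50.4% had a positive log2 fold change. T cell markers were positive in 8 of 8 (median log2 fold change 0.63), with a summed level of 9.92 to 21.6 CPM in Bad3SA and 3.58 to 13.5 CPM in Bad_WT. Adipocyte markers were positive in 6 of 6 (1.80), at 8.77 to 326 CPM in Bad3SA and 2.83 to 86.2 CPM in Bad_WT, and erythroid markers in 6 of 6 (1.22), at 64.2 to 220 CPM in Bad3SA and 25.0 to 111 CPM in Bad_WT. Skeletal muscle markers were positive in 0 of 5 (-2.34), at 2.21 to 136 CPM in Bad3SA and 2.15 to 1059 CPM in Bad_WT, where tumour 4 was highest. The muscle list mean was 7.46 log2 CPM in Bad_WT 4 and -2.50 to 1.31 log2 CPM in the other Bad_WT tumours. It was -2.36 to 4.44 log2 CPM in Bad3SA, so the negative direction leaned on Bad_WT 4. The part of these cell type lists in the results was not tested. In a whole tumour, fewer cells of a type and less RNA per cell cannot be told apart.

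BAD is a BH3-only member of the BCL2 family. When it is not phosphorylated it binds the survival proteins BCL2 and BCL-XL at mitochondria and favours apoptosis, and when survival kinases phosphorylate its regulatory serines it is held by 14-3-3 proteins in the cytosol. The Bad3SA allele is known to replace the regulatory serines at positions 112, 136 and 155 of the mouse protein with alanine. These codons are shown because they are the ones that the allele changes. They were read from the GENCODE transcript of the 204-codon reading frame (ENSMUST00000025910), in the reference C57BL/6J sequence, with the serine codon in capitals. All 3 lie on the plus strand in exon 3 of 4, at chr19:6950675-6950677, chr19:6950747-6950749 and chr19:6950804-6950806 (GRCm38).
Bad serine 112: cgccacagtTCGtacccagcg
Bad serine 136: cgctcgcgtTCGgctcccccc
Bad serine 155: cgaaggatgAGCgatgagttt
A count per gene does not separate alleles that differ in these codons, so the level of Bad does not check the genotype labels.

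The 10 genes are packed into less than 0.1 Mb, and several of them share sequence. Bad (ENSMUSG00000024959) runs on the plus strand from 6941861 to 6951899, with 2558 bp of exon. Gpr137 runs the other way on the minus strand from 6938057 to 6942480, so the genes start head to head and 524 bp of exon belong to both, which is 20.5% of the exon sequence of Bad and 15.4% of that of Gpr137. Prdx5 and Trmt112 form another head-to-head pair with 409 bp of exon in common, 33.2% of the exon sequence of Trmt112. Ppp1r14b and Plcb3 form the third such pair in the GENCODE annotation, with 22 bp in common. The RefSeq promoter window of Plcb3 (chr19:6969765-6970064) lies inside that gene body and does not reach Ppp1r14b, which starts at 6974968. Esrra and Trmt112 share 73 bp of exon where their ends meet. The ends of Plcb3 and Bad face each other across a gap of 425 bp, with no shared exon. Whether the counting used strand is not stated in the labels or headers, so reads from an overlap cannot be assigned to either gene.

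**Figure D1:**
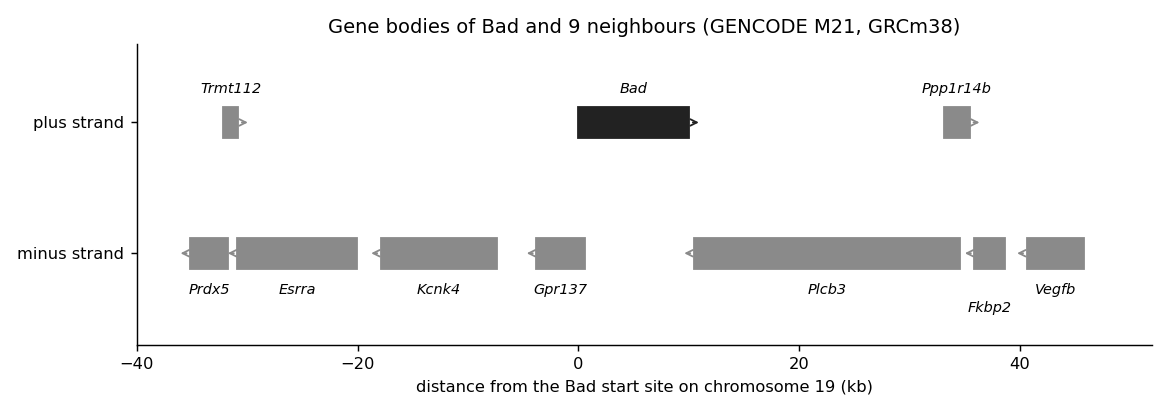
Positions of the 10 gene bodies by strand, as distance in kb from the Bad start site, with arrows in the direction of transcription. Bad and Gpr137 start head to head, and the ends of Bad and Plcb3 face each other across 425 bp.

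All 10 genes had at least 1 promoter window in RefSeq (GRCm38.p6), 15 windows in all, each of 300 bases. Bad had 2 windows and Gpr137 had 3. The window at the annotated start of the Bad gene (chr19:6941611-6941910, plus strand) and the Gpr137 window that overlaps it (chr19:6941458-6941757, minus strand) are printed because they share 147 bases and the levels of the pair are compared below. A further Bad window (chr19:6942312-6942611) and Gpr137 window (chr19:6942401-6942700), not printed, share 211 bases and hold no GC box and 1 CCAAT box match each. Capitals mark the GC box GGGCGG on either strand.
Bad promoter: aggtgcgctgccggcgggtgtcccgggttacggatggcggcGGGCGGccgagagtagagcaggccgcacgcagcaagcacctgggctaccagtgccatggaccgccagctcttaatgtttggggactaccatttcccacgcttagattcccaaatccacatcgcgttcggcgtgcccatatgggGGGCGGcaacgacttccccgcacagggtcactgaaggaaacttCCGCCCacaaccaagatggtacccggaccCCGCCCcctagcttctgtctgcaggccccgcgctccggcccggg
Gpr137 promoter: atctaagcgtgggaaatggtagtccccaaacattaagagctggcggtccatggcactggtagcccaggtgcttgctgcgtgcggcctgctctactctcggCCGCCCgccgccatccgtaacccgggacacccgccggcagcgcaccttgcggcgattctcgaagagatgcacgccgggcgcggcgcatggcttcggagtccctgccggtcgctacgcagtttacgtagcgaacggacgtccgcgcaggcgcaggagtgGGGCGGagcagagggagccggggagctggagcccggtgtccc
The GC box stood in 11 of the 15 member windows, against 35.7% of all 32851 RefSeq promoter windows. G and C made up 57.3% to 75.3% of the member windows, and no share for windows of like content was taken. The windows are not all distinct, since a GC box and a CCAAT box lie in stretches that Bad and Gpr137 share. The CCAAT box (CCAAT) stood in 5 of 15 windows, against 37.4% of all windows. The TATA box (TATAAA) and the element that binds ESRRA (TCAAGGTCA) were in none of the 15, against 13.6% and 0.423% of all windows. A match describes letters in these windows and is not a binding site.

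None of the 10 genes differed between the genotypes after adjustment over all genes. The count was 0 of 10 in edgeR's quasi-likelihood test with Benjamini-Hochberg adjustment at 0.05, in DESeq2 and in limma voom, where the shares called over all genes tested were 1.38%, 4.21% and 3.21%. In edgeR, 0.622% of all genes were called higher and 0.76% lower in Bad3SA. At an unadjusted p under 0.05 the count was 1 of 10 in edgeR, against 16.2% of all genes. The log2 fold change of Bad3SA over Bad_WT was positive for 9 genes and negative for 1, with a median of 0.15. Over all 18019 genes 50.4% were positive, with a median of 0.0033. The 10 genes are not independent, since some share exon sequence and Bad3SA 5 was the highest tumour for several. Without Bad3SA 5 the fold changes of Bad, Ppp1r14b and Fkbp2 were negative, at -0.10, -0.044 and -0.047. The standard errors of the 10 genes ran from 0.10 to 0.34, against a median of 0.22 over all genes. The authors' deposited table gives 0 of these 10 genes an adjusted p under 0.05, against 4.02% of the genes with an adjusted p there.

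**Figure D2:**
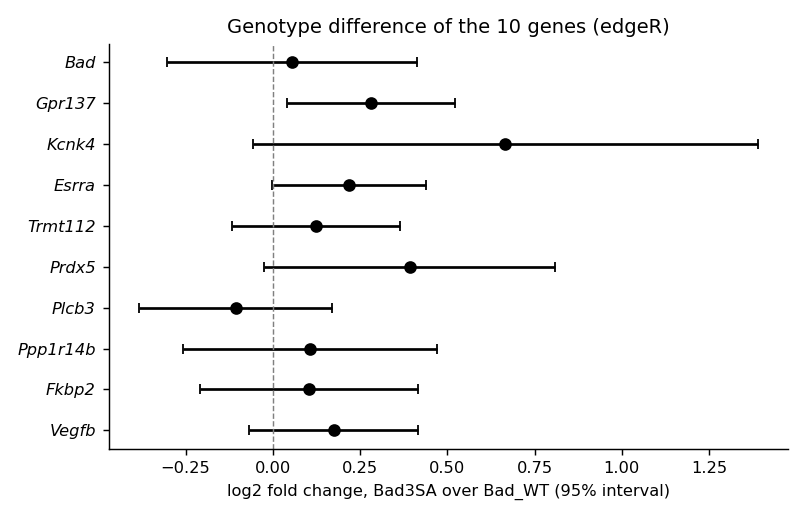
Log2 fold change of each gene, Bad3SA over Bad_WT, with its 95% interval from the edgeR fit. The interval of Gpr137 lies above 0 and the other 9 intervals include 0, before any adjustment for the number of genes.

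No difference between the genotypes was detected in the transcript level of Bad itself. Its values were 43.9, 41.5, 38.5, 44.2, 72.3 and 52.7 CPM in Bad3SA tumours 1 to 6, and 52.7, 48.4, 55.3, 52.4, 36.4 and 37.0 CPM in Bad_WT tumours 1 to 6. The groups overlapped, with the highest value in Bad3SA 5 and the lowest in Bad_WT 5 and 6. The means were 48.8 ± 12.4 CPM in Bad3SA and 47.0 ± 8.30 CPM in Bad_WT (SD, n = 6 each). The log2 fold change was 0.05 (SE 0.17, edgeR adjusted p = 0.889), with an interval of -0.30 to 0.41, or a fold of 0.81 to 1.33. Its sign was not stable, since it was -0.10 without Bad3SA 5, -0.01 without Bad_WT 5 or Bad_WT 6, and -0.19 after adjustment for end-point age. The authors' deposited table gives -0.04 for Bad_WT over Bad3SA, with an adjusted p of 0.936.

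Gpr137, which encodes a lysosomal membrane protein that acts on mTORC1 signalling, was the member with the smallest p. It stood at 15.1, 15.1, 19.4, 19.2, 17.6 and 15.0 CPM in Bad3SA tumours 1 to 6, and at 14.7, 14.1, 13.0, 14.6, 13.7 and 13.4 CPM in Bad_WT tumours 1 to 6. Every Bad3SA tumour lay above every Bad_WT tumour, by a narrow margin for Bad3SA 1, 2 and 6. It was the 1 member of 10 whose groups did not overlap, against 2.23% of all genes. The log2 fold change was 0.28 (SE 0.11, unadjusted p = 0.0257, edgeR adjusted p = 0.248). Over all alternatives the edgeR, DESeq2 and limma adjusted p lay between 0.126 and 0.751, and the authors' deposited table gives -0.27 for Bad_WT over Bad3SA with an adjusted p of 0.129. Some of its reads can come from Bad, given the shared exon, and their part in its level was not tested.

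Kcnk4, which encodes the mechanosensitive potassium channel TRAAK, was close to silent. It had 17 to 86 counts per tumour, against 818 to 26568 counts for the other members. The level was 0.528, 0.646, 0.951, 1.16, 0.436 and 1.2 CPM in Bad3SA tumours 1 to 6, and 0.549, 0.727, 0.669, 0.253, 0.435 and 0.457 CPM in Bad_WT tumours 1 to 6. Bad3SA 3, 4 and 6 lay above the Bad_WT range and the other tumours lay within it. The log2 fold change of 0.67 was the largest among the 10 and had the largest error (SE 0.34, edgeR adjusted p = 0.345). It shares 587 bp of exon with Catsperz on its own strand.

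Esrra, the gene of the orphan nuclear receptor ERR alpha that drives mitochondrial gene expression, was on average higher in Bad3SA without passing. It stood at 76.8, 65.8, 68.8, 70.1, 84.3 and 81.2 CPM in Bad3SA tumours 1 to 6, and at 71.5, 70.7, 61.7, 68.8, 52.9 and 58.5 CPM in Bad_WT tumours 1 to 6. All 6 Bad3SA tumours were above the Bad_WT median of 65.2 CPM, and Bad3SA 1, 5 and 6 were above every Bad_WT tumour. The log2 fold change was 0.22 (SE 0.10, edgeR adjusted p = 0.315).

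Prdx5 and Trmt112 each had a single high tumour, Bad3SA 5. Prdx5 encodes a peroxiredoxin of mitochondria, peroxisomes and cytosol that removes peroxides. It stood at 238, 217, 204, 267, 482 and 288 CPM in Bad3SA tumours 1 to 6, and at 225, 176, 233, 256, 188 and 214 CPM in Bad_WT tumours 1 to 6. Its log2 fold change was 0.39, with an SE of 0.19 and an edgeR adjusted p of 0.337, and it was 0.16 without Bad3SA 5 (adjusted p = 0.615). Trmt112 encodes the cofactor that stabilises methyltransferases of tRNA, rRNA and translation termination factor. It was at 44.9 to 51.7 CPM in Bad3SA tumours other than 5, at 68.9 CPM in Bad3SA 5, and at 42.5 to 51.9 CPM in Bad_WT. Its log2 fold change was 0.12 (SE 0.11, edgeR adjusted p = 0.587).

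Ppp1r14b and Fkbp2 showed a similar single high value. Ppp1r14b encodes an inhibitor of protein phosphatase 1. It was at 112 to 145 CPM in Bad3SA tumours other than 5, at 217 CPM in Bad3SA 5, and at 106 to 184 CPM in Bad_WT, where tumour 6 was highest. Fkbp2, a peptidyl-prolyl isomerase of the endoplasmic reticulum, was at 69.8 to 74.6 CPM in Bad3SA tumours other than 5, at 118 CPM in Bad3SA 5, and at 61.5 to 88.0 CPM in Bad_WT. Their log2 fold changes were 0.11 for Ppp1r14b (SE 0.17, edgeR adjusted p = 0.768) and 0.10 for Fkbp2 (SE 0.15, edgeR adjusted p = 0.735), and turned to -0.044 and -0.047 without Bad3SA 5. That tumour had the fewest counts, 58096172, and came from the oldest mouse, at 31.143 weeks. It also had the highest list means for nuclear oxidative phosphorylation, 7.85 log2 CPM against 6.62 to 7.19 in the other 11 tumours, and for adipocyte markers, 4.41 log2 CPM against -2.70 to 2.76. Their part in the high values was not tested.

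Plcb3 and Vegfb ran differently. Plcb3 encodes a phospholipase C that Gq-coupled receptors activate. It stood at 105, 103, 114, 109, 74.7 and 98.8 CPM in Bad3SA tumours 1 to 6, and at 98.0, 95.9, 96.1, 99.7, 123 and 139 CPM in Bad_WT tumours 1 to 6. The highest levels were in Bad_WT 5 and 6 and the lowest in Bad3SA 5, the reverse of Bad. Its log2 fold change was -0.11 (SE 0.13, edgeR adjusted p = 0.686), which became 0.10 after adjustment for end-point age and 0.050 in limma voom. Vegfb, a ligand of VEGF receptor 1, was at 24.8 to 36.2 CPM in Bad3SA, with Bad3SA 1 and 6 highest, and at 24.3 to 30.9 CPM in Bad_WT. Its log2 fold change was 0.17 (SE 0.11, edgeR adjusted p = 0.448).

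**Figure D3:**
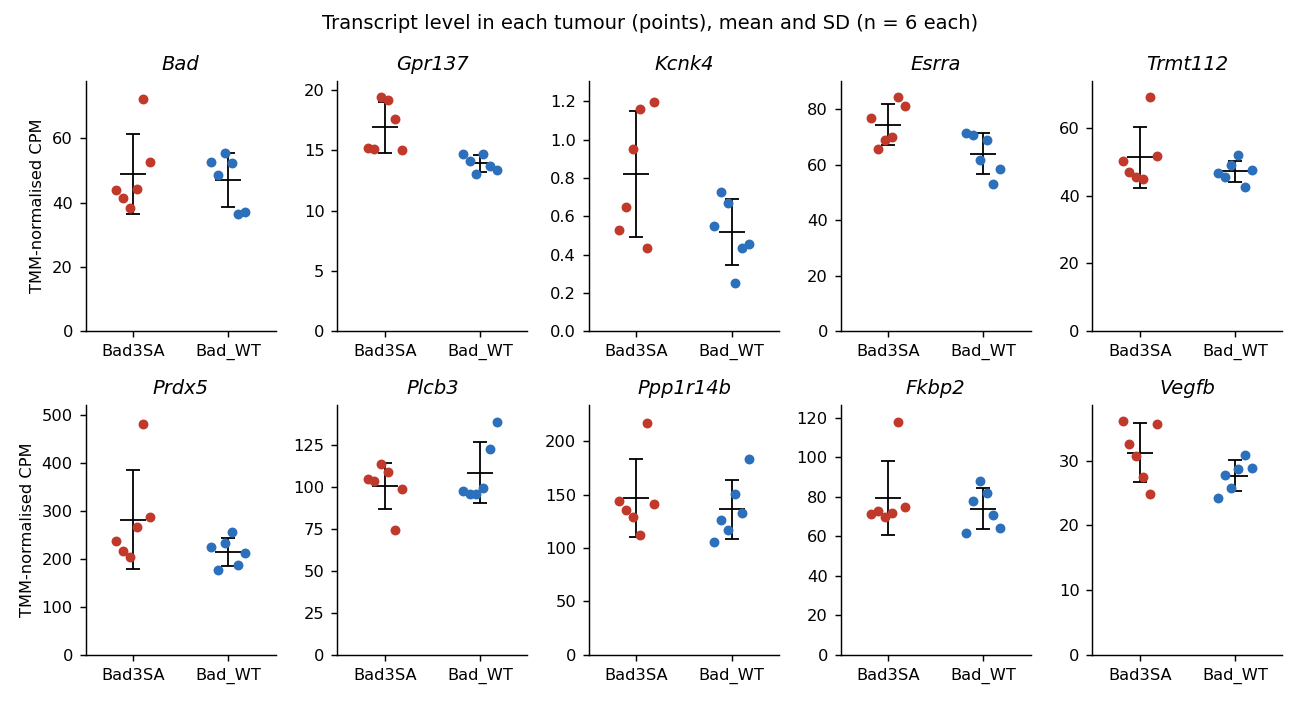
TMM-normalised CPM of each gene in each tumour (points), with Bad3SA at the left and Bad_WT at the right, and the mean with SD (n = 6 each). A single Bad3SA tumour, number 5, is highest for Bad, Esrra, Trmt112, Prdx5, Ppp1r14b and Fkbp2, and the groups separate for Gpr137.

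Per kilobase of exon the 10 genes spanned from nearly silent to abundant. In RPKM (CPM divided by exon length in kilobases, over the union of annotated exons) Prdx5 averaged 132 ± 48.0 in Bad3SA and 101 ± 13.9 in Bad_WT, and Ppp1r14b 96.0 ± 24.0 in Bad3SA and 89.2 ± 18.2 in Bad_WT (SD, n = 6 each). Fkbp2 followed at a mean of 46.8 RPKM over the 12 tumours and Trmt112 at 39.9 RPKM. Bad, at 19.1 ± 4.86 RPKM in Bad3SA and 18.4 ± 3.25 RPKM in Bad_WT, came next. It was not separable from Vegfb (18.4 RPKM over the 12 tumours), which it exceeded in 6 of 12 tumours. Esrra (15.8 RPKM) and Plcb3 (15.0 RPKM) overlapped as well. Gpr137 (4.54 RPKM) and Kcnk4 (0.149 RPKM) were below all the others in every tumour. On the log2 CPM scale, Bad minus the mean of its 9 neighbours was 0.16 ± 0.25 in Bad3SA and 0.32 ± 0.27 in Bad_WT (SD, n = 6 each). That mean is pulled down by Kcnk4, at -1.83 log2 CPM in Bad_WT 4 to 0.29 log2 CPM in Bad3SA 6. The gap therefore does not place Bad above its expressed neighbours.

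Tumours with more Bad transcript had less Plcb3 transcript. Across the 12 tumours the log2 CPM values of Bad and Plcb3 correlated at a Pearson r of -0.93 (permutation p = 2e-05, 0.00018 adjusted over the 9 neighbours) and a Spearman rho of -0.90 (permutation p = 0.00033, adjusted 0.00297). The r was -0.96 within Bad3SA and -0.93 within Bad_WT (n = 6 each, a description). It was -0.84 without Bad3SA 5 and Bad_WT 5, the tumours farthest from the Bad median. It was -0.87 without Bad3SA 5, Bad_WT 5 and Bad_WT 6 together, a choice made after seeing the data (exact permutation p = 0.00270 over 9 tumours, adjusted 0.0243). Of the other 18018 genes tested, 16 had a lower r with Bad than Plcb3 had.

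Bad_WT 5 and 6, which were lowest for Bad and highest for Plcb3, also had the highest levels of 2 lists that were added with earlier results known. Heat shock genes averaged 8.46 and 8.48 log2 CPM in these tumours, 6.91 to 7.40 log2 CPM in Bad3SA and 6.85 to 7.14 log2 CPM in the other 4 Bad_WT tumours. Immediate-early genes averaged 6.84 and 6.71 log2 CPM in Bad_WT 5 and 6, 5.26 to 5.93 log2 CPM in Bad3SA and 5.43 to 5.73 log2 CPM in the other 4 Bad_WT tumours. Over the 12 tumours the r with Bad was -0.67 for the heat shock mean and -0.79 for the immediate-early mean, given as a description. The part of these levels in the relation of Bad with Plcb3 was not tested. Exon length differed too, at 6960 bp for Plcb3 and 2558 bp for Bad, and its part in the relation was not tested.

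Trmt112, Prdx5, Fkbp2 and Esrra varied with Bad in the positive direction, and whether they passed depended on few tumours. Pearson r was 0.81 for Trmt112, 0.76 for Prdx5, 0.76 for Fkbp2 and 0.68 for Esrra (permutation p adjusted over the 9 neighbours 0.00936, 0.0122, 0.0122 and 0.0274). The Spearman rho ran from 0.60 to 0.64, with an adjusted permutation p of 0.0648 for each. Within Bad3SA the r was 0.95, 0.98, 0.93 and 0.85, and within Bad_WT 0.61, 0.52, 0.49 and 0.78 (n = 6 each, a description). Without Bad3SA 5 and Bad_WT 5 the r was 0.46, 0.36, 0.52 and 0.35, and none passed. Leaving out these tumours, the farthest from the Bad median, also narrows the range of Bad. Without Bad3SA 5 alone it was 0.60, 0.49, 0.49 and 0.54, each with an adjusted permutation p of 0.233. Esrra also missed the threshold without Bad_WT 5 (r = 0.60, adjusted permutation p = 0.0914) or without Bad_WT 6 (r = 0.63, adjusted permutation p = 0.0714). Of the genes tested, 1.95% had a higher r with Bad than Trmt112 and 6.88% a higher r than Esrra.

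For Gpr137, which shares exon sequence and promoter windows with Bad, no relation was detected over the 12 tumours (r = 0.07, rho 0.007, permutation p = 0.834 and 0.991). The value was unstable, at -0.40 without Bad3SA 5 and Bad_WT 5 and at -0.74 without Bad3SA 5, Bad_WT 5 and Bad_WT 6 (exact permutation p = 0.0176, adjusted 0.0793). It was -0.07 within Bad3SA and 0.30 within Bad_WT. Kcnk4 gave an r of -0.13 and a rho of 0.10 (adjusted permutation p = 0.782 and 0.901). Vegfb gave an r of -0.49 and a rho of -0.61 (adjusted permutation p = 0.164 and 0.0648). That rho had the same adjusted p as those of Trmt112, Prdx5, Fkbp2 and Esrra. Within the genotypes the r of Vegfb was -0.52 in Bad3SA and -0.75 in Bad_WT. Ppp1r14b gave 0.26 (adjusted permutation p = 0.539), with 0.87 within Bad3SA and -0.61 within Bad_WT, a difference that was not tested.

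**Figure D4:**
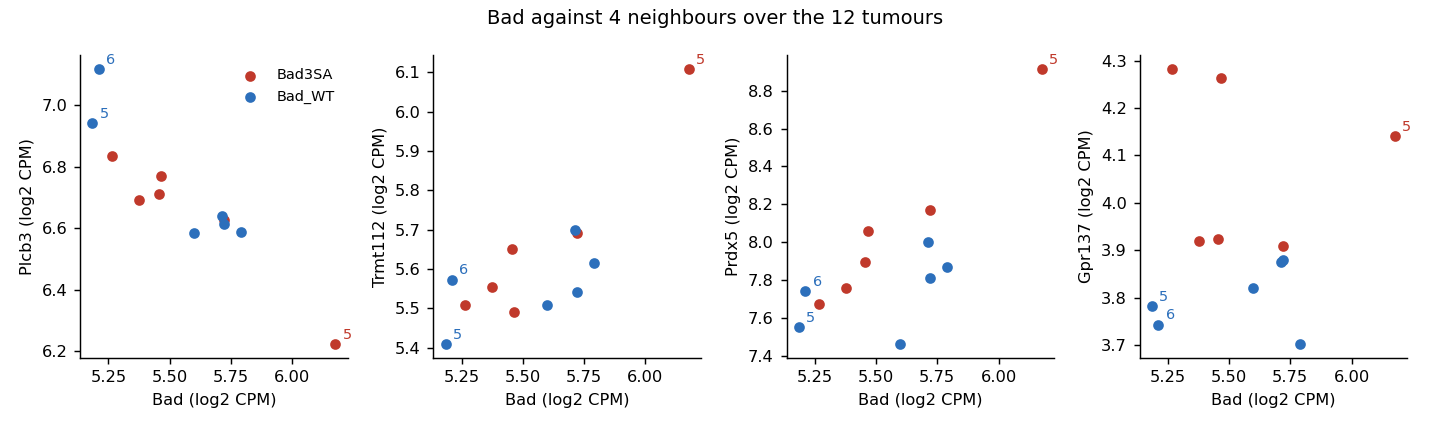
Log2 CPM of Plcb3, Trmt112, Prdx5 and Gpr137 against that of Bad over the 12 tumours, with Bad3SA 5 and Bad_WT 5 and 6 numbered. Plcb3 falls as Bad rises in both genotypes (r = -0.93). Trmt112 and Prdx5 rise with Bad, less closely without Bad3SA 5. Gpr137 has an r of 0.07 that changes with the tumours left out.

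Among all 45 pairs of the 10 genes, examined after the values were seen, 6 had a permutation p under 0.05 when adjusted over the 45. The highest r was that of the head-to-head pair Trmt112 and Prdx5, at 0.92 (adjusted permutation p = 0.0184) and a rho of 0.68 (adjusted permutation p = 0.177). It was 0.93 within Bad3SA, 0.86 within Bad_WT and 0.60 without Bad3SA 5 and Bad_WT 5, and 33.2% of the Trmt112 exon sequence is shared with Prdx5. Fkbp2 and Plcb3 gave -0.78 (adjusted permutation p = 0.0409), and -0.36 without Bad3SA 5 and Bad_WT 6. The third head-to-head pair, Plcb3 and Ppp1r14b, gave -0.17 (adjusted permutation p = 0.723), with -0.94 within Bad3SA and 0.75 within Bad_WT, a difference that was not tested.

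The genes whose pattern over the 12 tumours was most like that of Bad lay on other chromosomes, as most genes tested do. By Pearson r of log2 CPM these were Dtd2 (0.97), a D-aminoacyl-tRNA deacylase gene on chromosome 12, Ndufaf8 (0.94), an assembly factor gene of respiratory complex I on chromosome 11, and Yipf1 (0.94), a Golgi membrane protein gene on chromosome 4. Nt5m, a mitochondrial nucleotidase gene on chromosome 11, and Mpc2, a gene of the mitochondrial pyruvate carrier on chromosome 1, followed at 0.94 each. Of the 18019 genes tested, 609 were on chromosome 19. With so small a share there, the places of these 5 genes do not tell whether Bad varies with its locus. None of the 5 differed between genotypes, which their choice by likeness to Bad, itself without a detected difference, made likely. Dtd2 was at 32.3 ± 5.84 CPM in Bad3SA and 31.2 ± 3.29 CPM in Bad_WT (SD, n = 6 each, log2 fold change 0.05, edgeR adjusted p = 0.865).

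The surroundings of Bad held no gene that passed. Within 1 Mb of the gene body on either side, 104 genes were annotated and 65 were tested, of which 0 differed by edgeR, against 1.38% of all genes and 15 of 609 genes (2.46%) on chromosome 19. At an unadjusted p under 0.05 there were 7 of 65 (10.8%), against 16.2% of all genes. DESeq2 called 1 of the 74 to which it gave an adjusted p, against 4.21% of all genes, and this was the predicted gene Gm17227, which the edgeR filter had removed. The log2 fold change was positive for 47 and negative for 18, with a median of 0.13. Over all genes tested 50.4% were positive, with a median of 0.0033. The smallest p values of other genes belonged to Capn1, a calpain protease gene (112 ± 12.5 CPM in Bad3SA and 94.0 ± 2.76 CPM in Bad_WT, SD, n = 6 each, log2 fold change 0.25, edgeR adjusted p = 0.181), to Arl2, a small GTPase gene (0.43, edgeR adjusted p = 0.199), and to Nrxn2, a neurexin gene (1.01, edgeR adjusted p = 0.205). Majin, a meiotic telomere gene named after its values were seen, passed in edgeR without Bad_WT 4 (log2 fold change 1.63, adjusted p = 0.0402), and stood at 0.94 (adjusted p = 0.363) with all tumours.

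**Figure D5:**
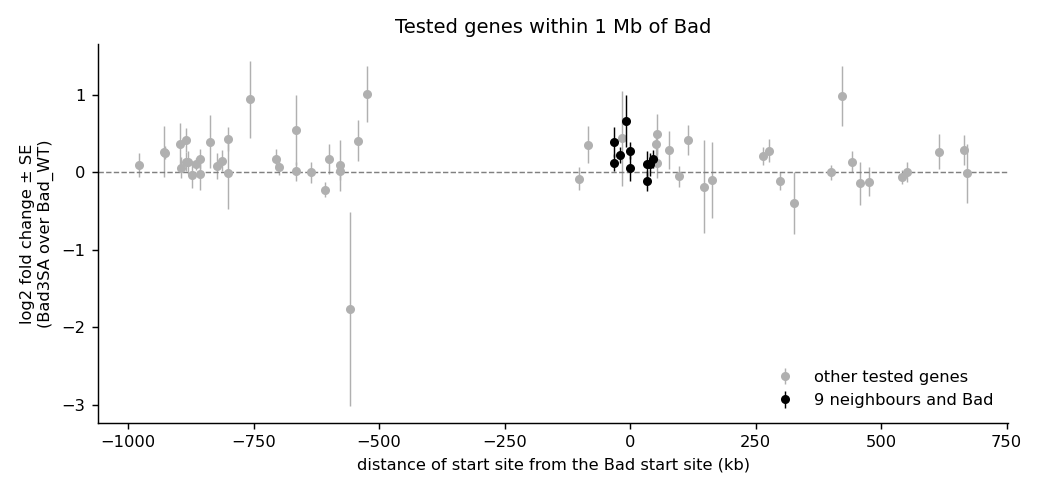
Log2 fold change with SE (Bad3SA over Bad_WT) of the 65 tested genes within 1 Mb of Bad, by distance of the start site from that of Bad. Bad and its 9 neighbours are black, other genes grey, and no gene passed.

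The partners and relatives of each product were then read from 12 lists chosen with earlier results known. Over these lists edgeR called 2 of the 163 genes tested, against 1.38% of all genes. In the list of BAD partners, kinases and phosphatases, 0 of 33 members passed, 13 were positive and 20 negative, with a median log2 fold change of -0.09. Bcl2, the survival protein that BAD binds, was at 45.2 ± 10.5 CPM in Bad3SA and 62.6 ± 6.01 CPM in Bad_WT (SD, n = 6 each, log2 fold change -0.47, edgeR adjusted p = 0.139, and 0.0297 in limma voom, where 3.21% of all genes passed). Rps6ka3, the gene of the kinase RSK2, stood at -0.42 (edgeR adjusted p = 0.149). In the list of GPR137 relatives and lysosomal mTORC1 partners 0 of 7 passed, with a median of 0.10. Its leading gene was the relative Gpr137c, at 16.2 ± 4.76 CPM in Bad3SA and 9.80 ± 1.71 CPM in Bad_WT (SD, n = 6 each, log2 fold change 0.73, edgeR adjusted p = 0.0868). Gpr137c passed in DESeq2 and limma voom (adjusted p = 0.0127 and 0.0429). Lamtor1 stood at 0.28.

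In the list of VEGF ligands and receptors 1 of 9 members tested fell and 0 rose, against 0.76% and 0.622% of all genes, and the median was -0.38. The gene that fell was Vegfc, and its difference from the fold change of Vegfb was not tested. Vegfc, the ligand that drives lymphatic vessel growth through VEGF receptor 3, was at 2.41, 3.73, 2.64, 2.32, 2.34 and 1.49 CPM in Bad3SA tumours 1 to 6, and at 5.10, 5.18, 9.45, 6.62, 9.90 and 12.7 CPM in Bad_WT tumours 1 to 6. The groups did not overlap, and the log2 fold change was -1.71 (SE 0.28, edgeR adjusted p = 0.00725). Adjusted for end-point age it was -1.48 and did not pass (edgeR adjusted p = 0.180).

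Lists around the other neighbours held few calls. None passed among 17 ESRRA relatives, coactivators and mitochondrial targets (median 0.004, Pdk4 at 1.54 and Esrrg at -0.67, with edgeR adjusted p of 0.240 and 0.279). None passed among 7 two-pore potassium channels (median -0.03, Kcnk1 at -0.18 and Kcnk5 at -0.49), among 7 TRMT112 methyltransferase partners (median 0.10, Alkbh8 at -0.25 and Mettl5 at 0.23), or among 11 genes of phospholipase C beta and Gq signalling (median -0.09, Itpr3 at 0.40 and Gna14 at -0.34). The 10 peroxiredoxin and thioredoxin genes were all positive, against 50.4% of all genes, with a median of 0.19. None of them passed, Txnrd2 standing at 0.26 and Prdx1 at 0.29. None of 8 PPP1R14 and phosphatase 1 genes passed (median 0.05, Ppp1r12c at 0.18 and Ppp1r12a at -0.24), and none of 9 FKBP genes (median -0.16, Fkbp5 at -0.65 and Fkbp9 at -0.44). Fkbp5 passed in DESeq2 (adjusted p = 0.0349), and Fkbp9 passed in edgeR without Bad3SA 2 (adjusted p = 0.0494).

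Ribosomal protein and oxidative phosphorylation genes served as lists of short, abundant transcripts. Of 25 cytosolic ribosomal protein genes 24 were positive and 1 negative, against 50.4% positive over all genes, with a median log2 fold change of 0.25. The negative gene was Rpl30, which fell to 60.3 ± 12.5 CPM in Bad3SA, against 127 ± 16.1 CPM in Bad_WT (SD, n = 6 each, log2 fold change -1.07, SE 0.14, edgeR adjusted p = 0.00116). The groups did not overlap, at 47.4 to 77.6 CPM in Bad3SA and 106 to 147 CPM in Bad_WT, against 2.23% of all genes. Rpl30 also passed with end-point age and with a replicate block (edgeR adjusted p = 0.0204 and 0.00312). The count table lists 9 pseudogene entries of Rpl30, 8 of them with counts. Reads could be divided between copies, and the part of this in its level was not tested. Of 20 nuclear oxidative phosphorylation genes 19 were positive, with a median of 0.35, and none passed. Their mean was 7.845 log2 CPM in Bad3SA 5 and 7.193 in Bad3SA 6. It was 6.675 to 6.936 in Bad3SA 1 to 4, which overlapped 6.618 to 6.856 in Bad_WT. Ndufb7 stood at 0.79 (178 ± 89.1 CPM in Bad3SA and 103 ± 8.52 CPM in Bad_WT, SD, n = 6 each). Cox4i1 stood at 0.48 (516 ± 181 CPM in Bad3SA and 370 ± 30.6 CPM in Bad_WT).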

How the data were processed

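For each of the 12 tumours the authors deposited a table of raw counts by Ensembl gene, per the file headers. The tools listed, per the submitters' processing notes, with the build GRCm38, are fastp (0.23.1), the aligner STAR (2.7.9a), and DESeq2. How reads were assigned to genes, with which annotation and with or without strand, is not stated in the labels or headers. A comparison the authors deposited gives, per the file headers, log2 fold changes with errors, p-values, a Wald score and the mean signal across tumours for every gene. Its sign is that of Bad_WT over Bad3SA, since it correlates at a Spearman rho of -0.997 with the fold changes fitted here, across 18019 genes. Total counts per tumour were 58096172 to 83296370. The p-values for genotype set the difference between groups against the spread between tumours.

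Counts were filtered with filterByExpr and normalised with TMM in edgeR 4.0.16 (R 4.3.3), and genotype was tested by quasi-likelihood with robust dispersion and Benjamini-Hochberg adjustment over 18019 genes at 0.05. The SE is the absolute log2 fold change over the square root of F. Log2 CPM used a prior count of 2. Correlations used 100000 permutations. Positions and exon lengths come from GENCODE release M21 on GRCm38, which lacks 260 of the 55487 identifiers. Promoters come from RefSeq on GRCm38.p6.

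The members and lists were chosen with earlier results of these data known. Named genes were the 10 members, the 3 smallest p values of other genes within 1 Mb, the passing genes of each list or else the 2 with the smallest p, and the 5 genes most like Bad among those averaging 1 log2 CPM or more, predicted models, pseudogenes and receptor segments left out. Alternatives were DESeq2 1.42.0 size factors, its Wald test, limma 3.58.1 voom with quality weights, other filters, non-robust dispersion, end-point age, a replicate block, and fits that omit each tumour in turn.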

Additional observations from a re-analysis of the deposited data

Results flagged for a closer look

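In 4 of the 20 sets of 6 tumours (10 genes in each genotype), Bad3SA 5 lay far from the other tumours of its genotype. It stood at 68.9 CPM for Trmt112, where the next Bad3SA tumour was at 51.7 CPM, and at 482 CPM for Prdx5, where the next was at 288 CPM. It stood at 217 CPM for Ppp1r14b, with the next at 145 CPM, and at 118 CPM for Fkbp2, with the next at 74.6 CPM. A tumour counted as far when its gap to the nearest other tumour, divided by the range of the 6, exceeded Dixon's 95% critical value. By its definition that value flags about 1 in 20 sets of independent, normally distributed values by chance. Whether CPM values are so distributed was not tested, so the rate here is not known. These 4 sets share a tumour.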

How the results depend on the processing

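None of the 199 fold changes of the 10 genes under alternatives passed, and the adjusted p ran from 0.126 to 0.999 in edgeR, DESeq2 and limma. The sign turned in 11. Bad was at -0.19 with end-point age and -0.17 in limma voom, Plcb3 at 0.10 and 0.050, and Fkbp2 at -0.14 and -0.028. With each tumour left out, Bad ran from -0.10 to 0.12, Ppp1r14b from -0.044 to 0.21 and Fkbp2 from -0.047 to 0.15. The cause was not tested. The number of genes called was 249, against 998 in DESeq2, 579 in limma voom, 163 with at least 1 CPM in 6 tumours, 73 with end-point age and 147 to 315 with a tumour left out. DESeq2 called 1 gene each within 1 Mb of Bad, in the GPR137 list and in the FKBP list. Limma voom called 1 each in the lists of BAD partners, GPR137 and ESRRA (Bcl2, Gpr137c and Esrrg). With end-point age 0 VEGF genes passed. Leaving out a tumour gave 0 to 1 calls within 1 Mb and 0 to 1 in the FKBP list.

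With a replicate block, 105 genes and 0 VEGF genes passed. No pairing by title number was detected. Same-numbered tumours deviated with correlations of -0.27 to 0.28, and 1 of 6 Bad3SA tumours correlated best with its own number. This check cannot exclude a pairing that has little effect on transcript levels.

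For the correlation with Bad, Gpr137 was at -0.40 without the 2 tumours farthest from the Bad median and -0.74 without Bad3SA 5, Bad_WT 5 and Bad_WT 6 together (exact permutation, adjusted p = 0.0793), and Ppp1r14b was at -0.47 and -0.14. Over those settings Esrra was at 0.35 and 0.024, Trmt112 at 0.46 and 0.52, Prdx5 at 0.36 and 0.32, and Fkbp2 at 0.52 and 0.38. With each tumour left out r ran from -0.23 to 0.32 for Gpr137, -0.25 to 0.049 for Kcnk4, 0.54 to 0.80 for Esrra, 0.60 to 0.85 for Trmt112 and 0.49 to 0.84 for Prdx5. It ran from -0.41 to 0.51 for Ppp1r14b, 0.49 to 0.92 for Fkbp2 and -0.66 to -0.32 for Vegfb, which passed without Bad3SA 6 (adjusted permutation p = 0.0406). For Plcb3 it ran from -0.95 to -0.86. Depth limits Kcnk4, with 17 to 86 counts per tumour.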
